A study of Mus musculus with 12 samples.

Results

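MicroRNAs (miRNAs) were compared between DN3 thymocytes of Drosha Lck-cre mice (DN3 Drosha) and DN3 thymocytes of Lck-cre mice (DN3 control), 1 library of each and 2 of the 12 libraries of the series. Both groups carried the Lck-cre transgene on a C57BL/6 backcrossed background, were 6 to 7 weeks old and were sorted by flow cytometry from the thymus. The Lck promoter drives Cre in T lineage cells from early stages in the thymus. The labels do not say how many mice went into a library, and the lists hold no Drosha mRNA, so the extent of the deletion in the sorted cells was not measured. Dicer-deficient DN3 thymocytes (DN3 Dicer), set against the same control, and Drosha-deficient and control regulatory T cells (Treg) are given as values beside the main pair. With 1 library a side no difference has a replicate check, and no p-value is given.

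DN3 thymocytes are T cell precursors with neither CD4 nor CD8 that rearrange the T cell receptor beta gene and pass the first checkpoint for a working receptor chain. Drosha, with its partner Dgcr8, cuts the hairpin out of the primary miRNA transcript in the nucleus, and Dicer then cuts the hairpin into a duplex of guide and passenger (star) strand. A few hairpins reach Dicer without Drosha: mirtrons are spliced out of short introns, and some hairpins are made directly by transcription. Drosha and Dicer cuts set the ends of a mature miRNA, and bases 2 to 8 from its 5′ end, the seed, lead target recognition.

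The lists held 916 distinct sequences in DN3 Drosha and 1067 in DN3 control, and 848 of them were shared. The sequences listed in a single library carried 0.113% of the DN3 Drosha value and 0.398% of the DN3 control value. Values are the authors' normalized mapping counts, which summed to 994955 in DN3 Drosha and 994020 in DN3 control. They are therefore shares of a library and do not show whether the miRNA content of a cell differed. Nothing below 10 was listed in either library, and the sequencing depth is unknown. Summed over the sequences of each guide and passenger strand, 215 mature miRNAs were listed in all. Of these, 181 were in both lists, 7 were in DN3 Drosha alone and 27 in DN3 control alone. Of the 181, 20 stood under 50 in both libraries and were left out of the ratios, which leaves 161 compared.

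The T lineage list took a similar share in both genotypes. All 12 of its miRNAs were present in each library, and together they took 47.7% of the value in DN3 Drosha and 50.8% in DN3 control. The list was chosen with earlier results of these data known. It includes miR-16 and members of the proliferation-linked miR-17 cluster and of the miR-106b cluster, so its share alone does not identify the cells. Lists for other cell types took smaller shares. Erythroid miRNAs took 0.450% in DN3 Drosha and 0.556% in DN3 control, and epithelial miRNAs 0.0177% and 0.0158% in the same order. Of 10 fibroblast or stroma miRNAs only miR-22 and miR-125b-5p were listed, and miR-143, miR-145, miR-199a and miR-214 were in neither list. The endothelial list took 0.0261% in DN3 Drosha and 0.0456% in DN3 control, and the myeloid list 0.777% and 1.42%. The myeloid miRNA miR-223 stood at 15 in DN3 Drosha and 28 in DN3 control.

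The sequences below are the mature miRNAs on which the comparison turns, from RefSeq on mouse build GRCm38.p6, written 5′ to 3′ with the seed in capitals. Of 47 named miRNAs 40 had an entry, with 34 distinct seeds. The first set shows miRNAs at the upper end of the DN3 Drosha to DN3 control ratio, with the abundant miR-181a and with miR-877, a mirtron listed in DN3 Drosha alone.
miR-342-3p: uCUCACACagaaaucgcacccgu
miR-351: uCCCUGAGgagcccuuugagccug
miR-31: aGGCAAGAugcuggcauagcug
miR-503: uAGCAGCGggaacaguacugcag
miR-210: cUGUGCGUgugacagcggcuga
miR-29b: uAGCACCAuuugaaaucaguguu
miR-423-5p: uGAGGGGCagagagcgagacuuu
miR-191: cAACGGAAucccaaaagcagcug
miR-181a: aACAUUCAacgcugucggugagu
miR-877: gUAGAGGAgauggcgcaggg

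The second set shows miRNAs at the lower end of that ratio, with miR-16 and miR-25 added because they share a seed with members of the set.
miR-149: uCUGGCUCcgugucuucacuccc
miR-32: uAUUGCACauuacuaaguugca
miR-25: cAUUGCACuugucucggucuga
miR-374: aUAUAAUAcaaccugcuaagug
miR-125b-5p: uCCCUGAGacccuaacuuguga
miR-33: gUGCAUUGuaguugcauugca
miR-192: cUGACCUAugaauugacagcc
miR-15b: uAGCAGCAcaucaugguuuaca
miR-16: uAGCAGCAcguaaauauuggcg
miR-27a: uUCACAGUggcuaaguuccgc

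miRNAs with the same seed could differ in their ratio. miR-351 and miR-125b-5p carry the same seed, CCCUGAG, and lay at opposite ends of the comparison. miR-15b and miR-16 share AGCAGCA, and miR-32 and miR-25 share AUUGCAC, with the value of 1 member of each pair far below the other relative to control, as described below.

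The log2 ratio of DN3 Drosha to DN3 control was taken for each miRNA and set against the median miRNA, whose own log2 ratio was −0.36. On that scale 59 of 161 miRNAs (36.6%) lay at least 1 log2 unit (2-fold) away, 24 of them higher in DN3 Drosha (14.9%) and 35 lower (21.7%). The ratios ran from −3.58 to 3.44. The split depends on the scale: with the deposited values as they stand it was 9 higher and 51 lower, with the median of ratios 15 and 40, and with values rescaled to the sum without the 5 most abundant miRNAs 9 and 51. The values just inside and just outside the threshold were 1.002 and 0.996 on the upper side and −1.05 and −0.99 on the lower side. In DN3 Dicer, against the same control library, 12 of 168 miRNAs lay that far from the median.

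**Figure D1:**
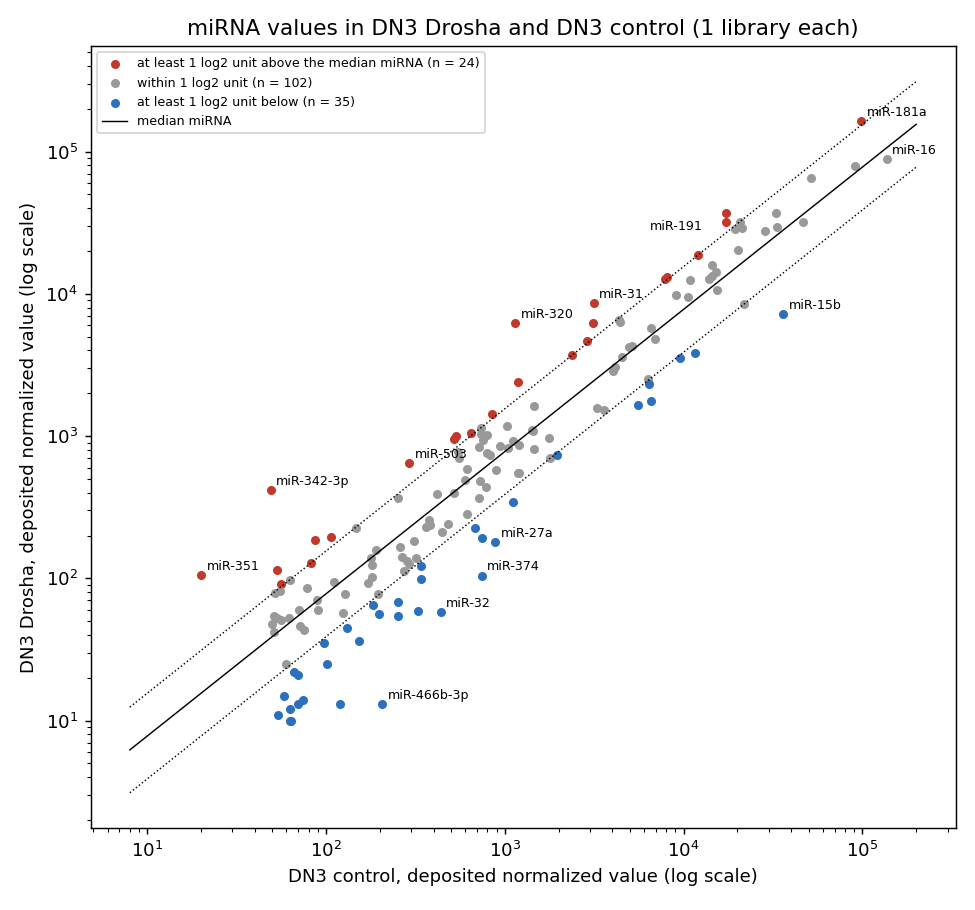
Summed deposited value of 161 miRNAs in DN3 Drosha (vertical, log scale) against DN3 control (horizontal, log scale), 1 library each. The solid line marks the median miRNA and the dotted lines 1 log2 unit on either side; 24 red points lie above the upper line and 35 blue points below the lower line.

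Among the most abundant miRNAs the order at the top differed. miR-181a, which tunes the signal strength of the T cell receptor, was first in DN3 Drosha at 163745 and second in DN3 control at 98891, which is 16.5% and 9.95% of the library. DN3 Dicer had 98040. miR-16, a cell cycle regulator, stood at 88739 in DN3 Drosha and 136868 in DN3 control and was first in the control. miR-20a stood at 79025 in DN3 Drosha and 91444 in DN3 control, and miR-21 at 64938 and 51578 in the same order. Relative to the median miRNA these were differences of 1.09 for miR-181a, −0.26 for miR-16, 0.15 for miR-20a and 0.69 for miR-21. Of the 10 leading control miRNAs, miR-181a was the one at least 1 unit above and miR-15b the one at least 1 unit below, and miR-142-5p lay just inside at −0.99.

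miR-342-3p had the highest ratio of the comparison. It is encoded in an intron of Evl (chr12:108658680-108658702, + strand, GRCm38.p6). Its value was 416 in DN3 Drosha, 129 in DN3 Dicer and 49 in DN3 control, 3.44 above the median miRNA. The other arm of the same hairpin, miR-342-5p, was listed at 25 in DN3 Drosha and not in DN3 control. In Treg cells the order was the reverse, with 2843 in Treg Drosha and 6357 in Treg control.

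Second came miR-320, a hairpin known to reach Dicer without Drosha and Dgcr8. It stood at 6193 in DN3 Drosha, 1087 in DN3 Dicer and 1141 in DN3 control, and at 2950 in Treg Drosha and 811 in Treg control. Both Drosha libraries were thus above their controls, while DN3 Dicer was close to the DN3 control. Of the 8 listed names for mirtrons and short hairpins searched for, 3 were found, and together they took 0.728% of the DN3 Drosha value and 0.191% of the DN3 control value. miR-484, made from a capped hairpin, stood at 940 in DN3 Drosha, 813 in DN3 Dicer and 755 in DN3 control, 0.68 above the median miRNA. In Treg cells miR-484 stood at 11746 in the Drosha library and 671 in the control. The mirtron miR-877, in an intron of Abcf1 (chr17:35960795-35960814, − strand, GRCm38.p6), had 109 in DN3 Drosha and no entry in DN3 control. Its hairpin fragments were likewise listed only in DN3 Drosha, at 93. In Treg cells miR-877 had 428 in the Drosha library and no entry in the control.

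Next in order among the highest ratios was miR-351, and miR-503 was the fifth. miR-351 stood at 105 in DN3 Drosha and 20 in DN3 control, a ratio of 2.73 that rests on a low control value. miR-503, which slows the cell cycle, stood at 645 in DN3 Drosha and 292 in DN3 control, and at 271 in Treg Drosha and 35 in Treg control. Both come from the miR-322 cluster on chromosome X. Its first member miR-322 had 1021 in DN3 Drosha and 793 in DN3 control, 0.73 above the median miRNA. A further member, miR-450a-5p, went the other way with 99 in DN3 Drosha and 342 in DN3 control (−1.42). Of the 4 members compared, 2 were at least 1 unit higher and 1 at least 1 unit lower. Beside these stand 14.9% higher and 21.7% lower over all 161 compared miRNAs.

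Several miRNAs known from activated T cells had higher values in DN3 Drosha. Of 6 compared, 3 were at least 1 unit higher and none lower, with a median of 0.96, and 2 were so on the deposited scale. Over all 161 compared miRNAs 14.9% were higher and 21.7% lower, and 9 were higher on the deposited scale. The list was chosen with earlier results known. miR-31 stood at 8573 in DN3 Drosha, 1850 in DN3 Dicer and 3139 in DN3 control. In Treg cells miR-31 went the other way, with 750 in the Drosha and 1425 in the control library, unlike miR-210 (100 and 54) and miR-221 (249 and 75). miR-210, the miRNA of the hypoxia response, had 115 in DN3 Drosha and 53 in DN3 control, and miR-221 had 948 and 520 in the same order. miR-155, the best known of the list, stood at 2883 in DN3 Drosha and 4032 in DN3 control, −0.12 from the median miRNA. miR-146b, which dampens inflammatory signalling, stood at 1003 in DN3 Drosha and 534 in DN3 control. Its seed partner miR-146a was listed at 33 in DN3 Drosha and not in DN3 control. miR-29b (36848 in DN3 Drosha, 17292 in DN3 control), miR-191 (31807 and 17203), miR-130b (6190 and 3130), miR-423-5p (2399 and 1191) and miR-501-3p (185 and 87) completed the 12 highest ratios, between 1.25 and 1.45 above the median miRNA. In Treg cells miR-29b, miR-191 and miR-423-5p were lower in the Drosha library than in the control, and miR-130b and miR-501-3p higher.

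At the other end, miR-466b-3p had 13 in DN3 Drosha, 194 in DN3 Dicer and 207 in DN3 control, the lowest ratio at −3.58. miR-149, in an intron of Gpc1 (chr1:92850381-92850403, + strand, GRCm38.p6), followed with 13 in DN3 Drosha, 218 in DN3 Dicer and 120 in DN3 control. miR-32, in an intron of Tmem245 (chr4:56895272-56895293, − strand, GRCm38.p6), had 58 in DN3 Drosha, 371 in DN3 Dicer and 439 in DN3 control. miR-374 stood at 104 in DN3 Drosha, 682 in DN3 Dicer and 741 in DN3 control. For each of these the DN3 Dicer value was several times that of DN3 Drosha. In Treg cells each went the other way. In Treg Drosha and Treg control, miR-466b-3p had 74 and 35, miR-149 131 and 91, miR-32 355 and 202, and miR-374 384 and 243. The DN3 Drosha values of miR-466b-3p, miR-149, miR-7a* (10, against 64 in DN3 control), miR-466d-5p (10 and 63), miR-669d (13 and 70), miR-33 (14 and 74) and miR-192 (12 and 63) lay at or near the lowest listed value, so further sequences of these miRNAs below 10 would not be seen.

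Abundant miRNAs were also among the lowest ratios. miR-15b stood at 7224 in DN3 Drosha, 53816 in DN3 Dicer and 35983 in DN3 control (−1.95). miR-15b and 1 of the 2 copies of miR-16 lie side by side in an intron of Smc4 (chr3:69009775-69009796 and chr3:69009918-69009939, + strand, GRCm38.p6), and miR-16 lay −0.26 from the median miRNA. miR-15a had 3549 in DN3 Drosha and 9548 in DN3 control (−1.07). The 3 members of the miR-15 and miR-16 family took 10.002% of the DN3 Drosha value and 18.3% of the DN3 control value. The miR-142 arms, typical of blood cells, stood at 8467 in DN3 Drosha and 21647 in DN3 control for miR-142-5p and at 3854 and 11554 for miR-142-3p.

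**Figure D2:**
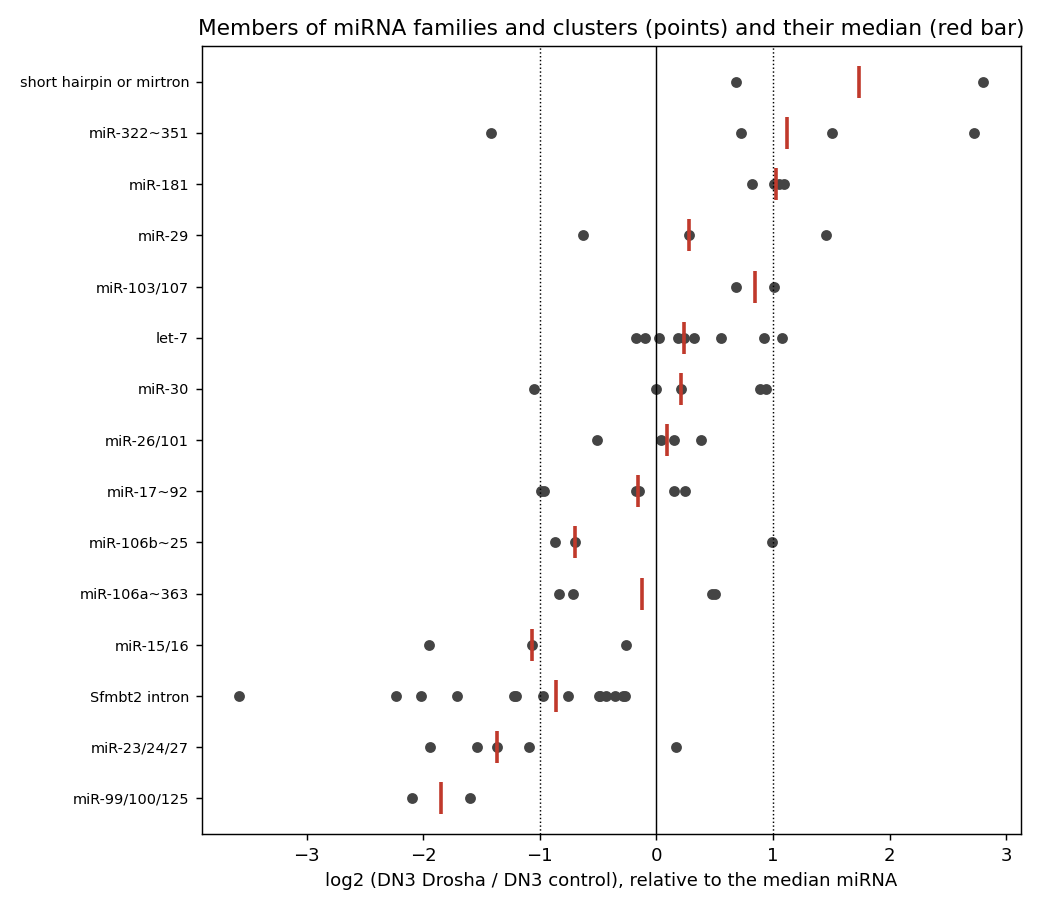
Log2 ratio of DN3 Drosha to DN3 control relative to the median miRNA (horizontal) for the compared members of 15 families, clusters and lists (points), with the list median as a red bar and dotted lines at 1 unit. On this scale the miR-181 points lie close together near 1, whereas the miR-322 and miR-106b clusters and the miR-15/16 family spread widely.

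Families differed in how far their members moved together. The counts below stand beside 14.9% higher and 21.7% lower over all 161 compared miRNAs. In the miR-181 family 3 of 4 members lay just past 1 unit above the median miRNA, and 0 of 4 did on the deposited scale, with the median of ratios or without the 5 most abundant miRNAs. The family took 21.04% of the DN3 Drosha value and 13.1% of the DN3 control value. miR-181c had 12674 in DN3 Drosha and 7881 in DN3 control, miR-181d 3734 and 2384, and miR-181b, at 0.82 above the median miRNA, 29171 and 21312. In the miR-23, miR-24 and miR-27 family 4 of 5 members were at least 1 unit lower. miR-23a had 1760 in DN3 Drosha and 6572 in DN3 control, miR-23b 1663 and 5527, miR-27a 179 and 886, and miR-27b 2327 and 6383. miR-24, made from the same clusters, was the exception with 5764 in DN3 Drosha and 6589 in DN3 control (0.17). miR-23a, miR-24 and miR-27a are also abundant in myeloid cells and are 3 of the 5 names of the myeloid list, which took 0.777% in DN3 Drosha and 1.42% in DN3 control. miR-223, its defining member, stood at 15 and 28 as given above, and the part of myeloid cells in these ratios was not tested.

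The proliferation-linked miR-17 cluster had none of 6 members at least 1 unit away and a median of −0.16. Over all 161 compared miRNAs 14.9% were higher and 21.7% lower, so the small counts given here show no trait of a family. On each of the other 3 scalings 2 of the 6, miR-18a (2525 in DN3 Drosha, 6329 in DN3 control) and miR-19a, were at least 1 unit lower. Relative to the median miRNA the members ran from miR-19a (701 in DN3 Drosha, 1794 in DN3 control, −0.99) to miR-17 (13359 and 14461, 0.25). In the miR-106b cluster, miR-93 had 31915 in DN3 Drosha and 20674 in DN3 control (0.99), whereas miR-106b had 1569 and 3282 (−0.70) and miR-25 had 1535 and 3609 (−0.87), and those 2 were past 1 unit lower on the deposited scale. These 3 come from a single transcript, the host gene Mcm7. Among 9 let-7 members 1 was at least 1 unit higher, let-7b at 13220 in DN3 Drosha and 8038 in DN3 control, and none lower; under the other 3 scalings let-7b was within 1 unit. miR-30b (739 and 1964) was the 1 of 5 miR-30 members past the threshold. Of the miR-29 family, miR-29a (14251 in DN3 Drosha, 15114 in DN3 control) and miR-29c (242 and 483) lay within 1 unit, unlike miR-29b.

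The miRNAs of the Sfmbt2 intron, a large repeated cluster, were lower in value. The list of 21 holds only names found in these data, so their listing in DN3 control is no separate result. All 21 were listed in DN3 control and 16 in DN3 Drosha. Of the 215 names of all miRNAs, 27 were in DN3 control alone. No trait of the cluster is drawn from the number listed. Of 14 compared, 6 were at least 1 unit lower and none higher, with a median of −0.86 (7 or 8 lower under the other 3 scalings). Over all 161 compared miRNAs 21.7% were lower and 14.9% higher. miR-467a had 36 in DN3 Drosha, 152 in DN3 Dicer and 153 in DN3 control, and the most abundant member miR-467e had 805, 1752 and 1457. Many of these sequences are near-identical, and how reads were divided among them is not given, so single names are uncertain. miR-99a (191 in DN3 Drosha, 745 in DN3 control) and miR-125b-5p (59 and 326) were both at least 1 unit lower. miR-125b-5p is also a stroma marker, and miR-22, the other listed one, had 1425 in DN3 Drosha and 853 in DN3 control, so the 2 differed in opposite directions. miR-150, which marks mature lymphocytes, stood at 68 in DN3 Drosha and 252 in DN3 control (−1.52), opposite to miR-342-3p of the same list. miR-7a had 342 in DN3 Drosha and 1115 in DN3 control (−1.34).

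Of the 7 miRNAs in DN3 Drosha alone, the next highest after miR-877, miR-146a and miR-342-5p were miR-99b and miR-10a, both at 17. The highest in DN3 control alone were miR-350 at 106 (132 in DN3 Dicer), let-7a* at 61, miR-140 at 54, miR-669f at 51 and miR-466d-3p at 48. Of these 27 control names 17 were also listed in DN3 Dicer, which listed 203 names in all. Passenger strands were 8 of the 27, beside 20 of the 161 compared miRNAs. Many of the 27 stood near the lowest listed value of 10, so these counts show no trait of the missing miRNAs. miR-140 was missing from DN3 Drosha although its other strand, miR-140*, stood at 969 in DN3 Drosha and 1769 in DN3 control.

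Sequences deposited in the precursor category, called precursor fragments here, took less of the DN3 Drosha library. Where these fragments lie relative to the mature strands was not examined. They held 0.406% of the value in DN3 Drosha, 0.610% in DN3 Dicer and 0.592% in DN3 control. The single loop sequence, from miR-142, stood at 48 in DN3 Drosha, 168 in DN3 Dicer and 124 in DN3 control. Over all 36 precursor and loop entries listed in both libraries, most of them small, the median relative to the median miRNA was 0.01. The 13 with at least 100 in either library are given as values only, since 4 of them reached 100 in DN3 control alone and none in DN3 Drosha alone. Among these, miR-669a-1 had 155 in DN3 Drosha and 631 in DN3 control, miR-19b-1 30 and 135, and miR-181b-1 55 and 159. The largest, miR-92a-1, had 814 in DN3 Drosha and 1214 in DN3 control. miR-181c had 774 in DN3 Drosha and 681 in DN3 control, and miR-140 was level at 209 and 210. miR-451, whose hairpin matures through a cut by Argonaute rather than Dicer, had precursor fragments of 368 in DN3 Drosha and 611 in DN3 control, and mature values of 4268 and 5126.

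Passenger strands held 1.04% of the value in DN3 Drosha and 1.10% in DN3 control. The median of 20 passengers was −0.29 and that of 141 guides 0.04. Of the passengers 5 were at least 1 unit lower and 1 higher, and of the guides 30 and 23, beside 21.7% lower and 14.9% higher over all compared miRNAs. For a passenger and its guide name the scale of the library cancels. That passenger to guide ratio was lower in DN3 Drosha in 15 of 24 pairs and higher in 9. A guide name can sum more than 1 hairpin, so not every pair lies within a single hairpin. The log2 changes of that ratio had a median of −0.24 and ran from −1.95 for miR-425* to 2.48 for miR-30b*, which rests on values of 21 and 10. The highest passenger, miR-17*, was 47.3% of its guide in DN3 Drosha and 30.4% in DN3 control. miR-28* was 23.4% and 6.83% of its guide in the same order, whereas miR-181a-1* was 0.224% and 0.728%. The guide miR-181a has 2 loci, so the miR-181a-1* values set the passenger of 1 hairpin against a summed guide. Arms named 5p and 3p could also part: miR-423-5p lay 1.37 above the median miRNA and miR-423-3p 0.21, and miR-126-5p lay at −1.35 and miR-126-3p at −0.32.

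The forms of each miRNA differed as well as its value. DN3 Drosha sequences were longer, with a mean of 22.5 nt, against 21.99 nt in DN3 Dicer and 22.2 nt in DN3 control, weighted by value. Sequences of 23 nt took 38.5% of the value in DN3 Drosha and 30.7% in DN3 control, and those of 24 nt 9.43% and 5.76%. Sequences of 21 nt took 9.05% in DN3 Drosha and 16.5% in DN3 control. In Treg cells the mean length was 21.9 nt in the Drosha and 21.7 nt in the control library. RNA had been cut from a gel as a band of 19 to 30 nt, per the labels, and the listed DN3 sequences of both genotypes ran from 15 to 28 nt.

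**Figure D3:**
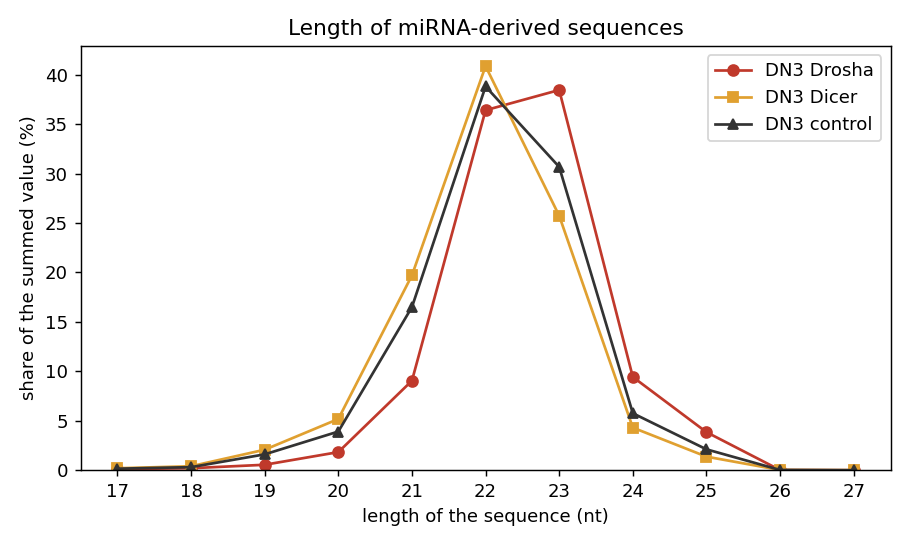
Share of the summed value (vertical, %) by length of the sequence (horizontal, nt) in DN3 Drosha (red), DN3 Dicer (yellow) and DN3 control (black), 1 library each. DN3 Drosha peaks at 23 nt with 38.5%, and DN3 control at 22 nt with 38.8%.

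Part of the length difference lay at the 3′ end within individual miRNAs. The mean length differed by 0.36 nt between the libraries. With equal weights for each miRNA, the mean 3′ end within miRNAs differed by 0.124 nt. Weighted by value it differed by 0.19 nt, but each library was weighted by its own values. That figure therefore also holds the change in the mix of miRNAs. How the length difference divides between the 3′ ends and the mix was not tested. Among 112 miRNAs with at least 100 in both libraries, the mean 3′ end lay further out in DN3 Drosha in 92 (82.1%), further in for 16 and level for 4, with a median shift of 0.11 nt. The mean 5′ end moved by more than 0.1 nt in 5 of the 112. Relative to the leading control sequence, 22.8% of the DN3 Drosha value and 18.1% of the DN3 control value was extended at the 3′ end, and 15.9% and 22.3% was shortened. The shift was found among miRNAs with ratios above the median miRNA (54 of 61 further out) and below it (37 of 50). DN3 Dicer, set against the same control, lay on the other side, with 12 of 127 further out and 111 further in. In Treg Drosha, with its own control, 74 of 108 were further out and 31 further in, with a median of 0.07 nt.

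**Figure D4:**
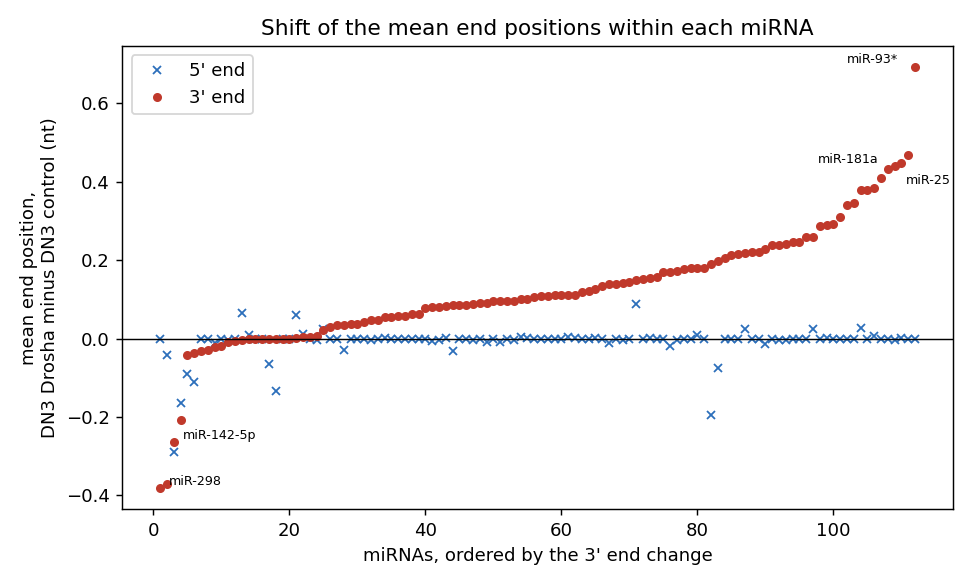
Change of the mean end position, DN3 Drosha minus DN3 control (vertical, nt), for 112 miRNAs ordered by the change at the 3′ end (horizontal); red circles are 3′ ends and blue crosses 5′ ends, positive values lie further toward the 3′ side. Most red circles lie above 0, up to 0.69 nt for miR-93*, while most crosses lie on 0.

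The 3′ shift was 0.69 nt for miR-93*, 0.47 nt for miR-20a*, 0.45 nt for miR-181a, 0.44 nt for miR-25, 0.43 nt for miR-31 and 0.38 nt for miR-191. miR-181a sequences averaged 23.4 nt in DN3 Drosha, 22.8 nt in DN3 Dicer and 22.99 nt in DN3 control. The opposite shift was seen for miR-298 (−0.38 nt), miR-296-3p (−0.37 nt) and miR-142-5p (−0.26 nt).

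In 10 of 112 miRNAs (8.93%) the leading sequence differed between the libraries, and in 9 of these the DN3 Drosha lead was the longer. The sequences are written as deposited, as DNA, with the bases that the longer form adds in capitals.
miR-16, 22 nt: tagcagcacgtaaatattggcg
miR-16, 23 nt: tagcagcacgtaaatattggcgT
miR-191, 22 nt: caacggaatcccaaaagcagct
miR-191, 24 nt: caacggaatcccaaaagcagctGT
miR-25, 20 nt: cattgcacttgtctcggtct
miR-25, 22 nt: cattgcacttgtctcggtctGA
miR-128, 21 nt: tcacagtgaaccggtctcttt
miR-128, 22 nt: tcacagtgaaccggtctctttT
miR-29a, 21 nt: tagcaccatctgaaatcggtt
miR-29a, 22 nt: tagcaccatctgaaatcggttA

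For miR-16 the 22 nt form stood at 40679 in DN3 Drosha and 74188 in DN3 control, and the 23 nt form at 42204 and 48563. For miR-191 the 22 nt form had 9756 in DN3 Drosha and 6078 in DN3 control, and the 24 nt form 10688 and 4059. The short form of miR-25 differed most, with 271 in DN3 Drosha, 1371 in DN3 Dicer and 1278 in DN3 control, while the 22 nt form had 865, 1556 and 1255. For miR-128 and miR-29a the 2 forms stood closer in each library. The 22 nt form of miR-128 had 15299 in DN3 Drosha and 11883 in DN3 control, beside 13165 and 13689 for the 21 nt form. The 22 nt form of miR-29a had 6623 and 6220, beside 5838 and 7347. The exception was miR-296-3p, whose 20 nt form led in DN3 Drosha (395, with 203 for the 22 nt form) and whose 22 nt form led in DN3 control (274, with 259). Where the lead was the same, its share could still differ: the leading form of miR-31 took 69.7% of that miRNA in DN3 Drosha and 44.4% in DN3 control, and that of miR-30e 65.6% and 48.7%.

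miR-142-5p was the main case of a moved 5′ end, which also moves the seed. Its forms are shown with the 2 added 5′ bases in capitals.
miR-142-5p, first start: CCcataaagtagaaagcactac
miR-142-5p, second start: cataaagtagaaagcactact
Sequences with the first start took 49.8% of miR-142-5p in DN3 Drosha, 39.9% in DN3 Dicer and 36.7% in DN3 control. Those with the second start took 45.4%, 53.4% and 55.8% in the same order.

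The ratios also moved with properties of the miRNA. Of 28 miRNAs whose leading sequence is 21 nt long, 13 were at least 1 unit lower in DN3 Drosha and none higher (median −0.94), and of 35 with a lead of 23 nt, 3 were lower and 9 higher (median 0.22). Of 27 with more than 55% G and C, 6 were higher and none lower (median 0.21). Of 59 above 45% and up to 55%, 13 were higher and 14 lower (median 0.25). Of 59 above 35% and up to 45%, 4 were higher and 15 lower (median −0.28). Of 16 with at most 35%, 1 was higher and 6 lower (median −0.74). Beside these stand 14.9% higher and 21.7% lower over all compared miRNAs. Across the 161 miRNAs, which share 2 libraries, Spearman's rho with the ratio was 0.33 for length and 0.29 for G and C content, and Pearson's r 0.29 and 0.30. The part of base composition in the ratios was not tested. For length, the values were restricted to sequences of 22 and 23 nt, an alternative added after seeing the data. With it 16 of the 24 highest and lowest miRNAs could be compared. Of these, 15 stayed at least 1 unit from the median in the same direction, and miR-146b fell from 1.27 to 0.67. Those not compared were miR-149, miR-7a*, miR-466d-5p, miR-669d, miR-33, miR-192 and miR-27a of the lowest and miR-351 of the highest. For these the restriction cannot show the part of length. For the others it narrowed the lengths but did not make them equal. Sequences of 23 nt still took 38.5% of the value in DN3 Drosha and 30.7% in DN3 control. The part of length in the ratios was therefore not tested.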

How the data were processed

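Per the labels, small RNAs of 19 to 30 nt were taken from a gel and ligated through a 5′ phosphate and 3′ hydroxyl, then mapped to miRNA loci. The sources used here name no aligner, miRBase release or build. The deposited values were treated as scores: whole numbers per distinct sequence, normalized by the authors per the file headers (the DN3 Dicer header does not say so), nothing below 10. Every whole value from 10 to 70 occurs in DN3 Drosha and from 10 to 86 in DN3 control. Depth is unknown, so no interval is given, and the single library a side limits the precision.

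Guide and passenger entries were summed per miRNA name (Python 3.11.15, pandas 2.3.3). Log2 ratios used a pseudocount of 0.5, needed a listing in both libraries and at least 50 in one, and were set against the median miRNA. 3′ and 5′ ends were placed against the leading control sequence with an overlap of at least 12 nt. In DN3 Drosha and DN3 control 2 sequences each of miR-92a could not be placed, and in DN3 Dicer 3 sequences. The calculation was tested on simulated data.

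The named miRNAs were the 10 highest in control, the 12 highest and 12 lowest ratios, the 5 highest listed in 1 library only, lists with a member past 1 unit, mirtrons, precursor entries of at least 100 and the largest changes of form. Members and lists were chosen with earlier results of these data known. Alternatives were other scalings, pseudocounts, minimums, floors for missing names, and leading sequences only. Host genes come from GENCODE M21.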

Additional observations from a re-analysis of the deposited data

Results flagged for a closer look

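For 7 miRNAs the Drosha to control ratio, relative to the median miRNA, lay at least 1 log2 unit to opposite sides in DN3 and Treg cells. In either direction 59 of 161 miRNAs lay that far from the median in DN3 and 52 of 155 in Treg. Each side is 1 library, so the difference between the cell types was not tested. miR-342-3p was at 3.44 in DN3 and −1.03 in Treg, and miR-181d at 1.01 and −1.14. The reverse held for miR-466b-3p (−3.58 in DN3, 1.20 in Treg), miR-450a-5p (−1.42 and 1.97), miR-449a (−1.12 and 3.08), miR-144 (−1.10 and 3.27) and miR-15a (−1.07 and 1.41). Several rest on low values. miR-449a had 10 in Treg control, miR-466b-3p 13 in DN3 Drosha and 35 in Treg control, miR-450a-5p 47 in Treg control and miR-342-3p 49 in DN3 control. miR-15a rests on high values: 3549 in DN3 Drosha and 9548 in DN3 control, and 10616 in Treg Drosha and 4373 in Treg control.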

How the results depend on the processing

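No paired analysis was possible because each genotype has 1 library and the labels give no replicate numbers, and for the same reason no replicate could be left out. No named miRNA at least 1 unit from the median and no list median past 0.5 changed sign. Smaller values did: 12 results, at most 0.32 from the median miRNA, changed sign in some setting. On the deposited scale let-7a, let-7g, miR-20a and 7 list medians fell below 0, among them let-7 (0.23 to −0.13), miR-30 (0.21 to −0.15), miR-29 (0.28 to −0.08) and the erythroid list (0.10 to −0.26). The count of miRNAs at least 1 unit higher was 9 on the deposited scale, 15 with the median of ratios and 9 without the 5 most abundant miRNAs. With at least 200 in one library, 35 of 114 were past the threshold, 13 higher and 22 lower, and 15 of the 24 highest and lowest stayed. With sequences of 22 and 23 nt only, added after seeing the data, 35 of 134 were past it, 14 higher and 21 lower, and 15 named miRNAs stayed. Of the 12 highest, miR-130b, miR-146b and miR-191 fell under 1 unit in 2 of 8 settings. miR-181a, named for its abundance, did so in 3 of 8. The setting of 22 and 23 nt is not among these 8, and in it miR-146b was at 0.67. Without the 5 most abundant miRNAs, guides took 97.3% in DN3 Drosha and 96.8% in DN3 control, passengers 1.95% and 2.04% and precursor fragments 0.763% and 1.09%. With entries of at least 50 only, these were 98.7% and 98.5%, 0.955% and 0.970%, and 0.303% and 0.475%. The passenger to guide difference, −0.33 over all, was −0.24 within pairs of a passenger and its guide name and −0.49 at 200. The leading form differed in 6 miRNAs at 500 or more, and in 1 where the lead exceeded the next form 1.5 times in both libraries. The value-weighted 3′ difference of 0.19 nt, which also holds the mix of miRNAs, was 0.196 nt at 500. Added after seeing the data, it was 0.191 nt with shared sequences only. With equal weights the shift was 0.124 nt. Depth is unknown, so values near 10 carry an unknown counting error.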
